A study of Mus musculus with 27 samples.

Results

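UTX was found at 1326 sites that also carried H3K4me3 in wild-type mouse embryonic stem cells, and these sites are described here. They are the peaks of the UTX list of these cells that overlapped an H3K4me3 peak of the same cells by at least 1 bp, out of 5076 UTX peaks in all, and the other 3750 UTX peaks lay away from H3K4me3. The members were therefore chosen by the UTX and H3K4me3 lists of wild-type embryonic stem cells, and values from those lists describe the choice and support nothing beyond it. UTX peaks on H3K4me3 met 1291 of the 19468 H3K4me3 peaks of these cells. Those 1291 are called UTX-marked H3K4me3 peaks below, and the remaining 18177 are called UTX-free.

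The series mapped UTX, H3K4me3 and H3K27me3 by chromatin immunoprecipitation and sequencing (ChIP-seq) while fibroblasts were reprogrammed. It concerns the part of Utx in reprogramming to pluripotency. Embryonic stem cells (ESC) were of the V6.5 line, either Utx-KO (Utx-/Y) or wild type (WT, Utx+/Y), and were grown in N2B27 with 2i and LIF. Aberrant iPS cells were 2 clones derived from V19-OSKM fibroblasts lacking Utx, which the labels describe as improperly reprogrammed, and they were sampled without doxycycline. Embryonic fibroblasts (MEF) carried V19-OSKM, in which doxycycline (dox) switches on the reprogramming factors Oct4, Sox2, Klf4 and Myc, and were Utx-KO with dox, WT with dox, Utx-KO without dox or WT without dox, all in 2i and LIF. All cells carry a Y chromosome and so a single X. The medium of the iPS clones was not stated. The length of the dox treatment was not given in the sources used here.

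Each state and mark had 1 library apart from the iPS state with its 2 clones, so no difference between states was tested. The 95% intervals given with shares (Wilson) and with differences of shares cover counting error over regions only, and neighbouring regions are not independent. Read depth was unknown. The H3K27me3 lists were of very unequal length, at 36231 peaks in Utx-KO ESC and 5679 in WT ESC, and the 2 iPS clones and WT MEF with dox had 135, 737 and 938. The lists of H3K4me3 held between 16157 and 28232 peaks. No UTX list of Utx-KO cells was used, so what the UTX antibody gives without its target is not known. Positions are those of mouse build mm9, and regions are named by position because no mm9 gene annotation or genome was used here. For the same reason the labelled cell types were not checked against marker genes.

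UTX, encoded by Utx (Kdm6a) on the X chromosome, removes methyl groups from lysine 27 of histone H3. It is also a subunit of the KMT2C and KMT2D complexes, which methylate lysine 4 of the same histone, and it is therefore known from both enhancers and promoters. H3K4me3 marks promoters of active and poised genes, and H3K27me3 is the mark laid down by Polycomb repressive complex 2. Promoters that carry both marks in embryonic stem cells are called bivalent and are typical of developmental regulators.

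The UTX peaks on H3K4me3 were short and of modest score. Their width ranged from 302 to 2003 bp with a median of 660 bp, against a median of 617 bp for the UTX peaks away from H3K4me3. Their score, the authors' own value for each peak and at least 50 in every list, had a median of 77.0 and a highest value of 546. The UTX peaks away from H3K4me3 had a median score of 72.7 and reached 1737. At the edge of the rule, 11 members overlapped H3K4me3 by 50 bp or less and had scores of 50.7 to 177 (median 68.8). Outside it, 10 UTX peaks ended within 50 bp of an H3K4me3 peak and scored 52.6 to 228 (median 79.6). The sites just inside and just outside the rule thus had overlapping scores. Within 10000 bp, 237 members (17.9%) had another member and 167 (12.6%) had a UTX peak away from H3K4me3.

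Most members lay wholly within H3K4me3. All of the UTX peak was covered in 767 members (57.8%), 50% or more but not all of it in 348, and less than 50% in 211. The members with all of the peak covered had a median UTX score of 69.1, and those with less than 50% covered had a median of 96.6. UTX peaks reaching beyond H3K4me3 thus had higher scores than those inside it. A single H3K4me3 peak was met by 1288 members, and 38 members bridged the gap between 2 neighbouring H3K4me3 peaks. Seen from H3K4me3, 1224 peaks held 1 UTX peak, 61 held 2 and 6 held 3.

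The gaps bridged by UTX had a median length of 164 bp and reached 865 bp. One continuous stretch of H3K4me3 closed 6 of the 38 bridged gaps in Utx-KO ESC (15.8%, interval 7.44 to 30.4). The same held for 288 of the 881 gaps of up to 865 bp that no UTX peak bridged (32.7%, 29.7 to 35.9), whose median length was 231 bp. In iPS clone 2, 12 of the 38 bridged gaps (31.6%, 19.1 to 47.5) and 43.1% (39.9 to 46.4) of the others were closed. In iPS clone 1 the shares were 13.2% (5.75 to 27.3) and 13.1% (11.0 to 15.4). The interval for the bridged gaps is wide because there are only 38 of them.

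The H3K4me3 peaks under UTX were wide. The median width was 2519 bp (interval of the median 2374 to 2625) for UTX-marked peaks and 2077 bp (2061 to 2098) for UTX-free peaks, and the widest UTX-marked peak measured 21468 bp. When all 19468 H3K4me3 peaks were divided by width into 5 bins of nearly equal number, UTX was met by 4.98%, 5.02%, 5.67% and 5.27% of the peaks in the 4 narrower bins. In the widest bin, from 3148 bp upwards, the share was 12.2% (11.2 to 13.3), and this bin held 36.9% of all UTX-marked peaks. Of the 779 peaks of 5000 bp or more, 177 were UTX-marked (22.7%, 19.9 to 25.8), and of the 35 peaks of 10000 bp or more, 18 were. Wide peaks offer more sequence to overlap. Per megabase of H3K4me3, UTX peaks centred inside it numbered 27.9 in the widest bin, 17.0 in the next and 28.2 in the narrowest. Counting every overlap of at least 1 bp, as the rule does, the numbers per megabase were 30.9 in the widest bin, 19.8 in the next and 47.1 in the narrowest. In bins 2 and 3, counted from the narrowest, the numbers were 24.3 and 22.3 by centres and 32.8 and 28.2 by overlaps. The widest bin thus had more UTX per peak than any other bin. Per base it exceeded bins 2, 3 and 4 by centres, and bins 3 and 4 only by overlaps. It did not exceed the narrowest bin per base by either count.

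**Figure D1:**
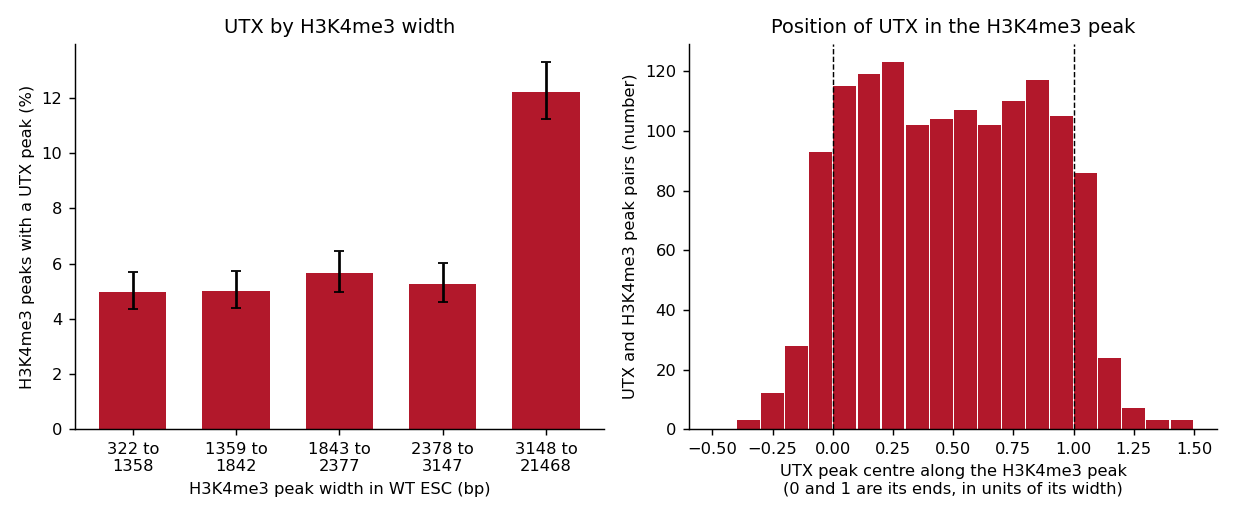
Left, the share of WT ESC H3K4me3 peaks that met a UTX peak, in 5 bins by H3K4me3 width with 95% Wilson intervals, at 12.2% in the widest bin and between 4.98% and 5.67% in the others. Right, the number of UTX and H3K4me3 peak pairs by the position of the UTX peak centre along the H3K4me3 peak, with dashed lines at its ends, spread over the whole peak and beyond both ends.

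UTX centres were spread along these peaks. Of the 1364 pairs of a UTX peak and an H3K4me3 peak, the UTX centre lay in the central 50% of the H3K4me3 peak in 534 (39.1%), in its outer parts in 570 (41.8%) and outside it in 260 (19.1%). In the narrowest width bin the UTX centre was outside in 40.1% of pairs, and in the widest bin in 9.60%. In the widest bin the median distance from the UTX centre to the midpoint of the H3K4me3 peak was 1302 bp and that to its nearer end 1041 bp.

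In score, UTX-marked H3K4me3 peaks were found at both ends of the range. The share met by UTX was 7.32% (6.54 to 8.18) in the lowest of 5 score bins, 4.91% (4.27 to 5.63) in the fourth and 8.84% (7.99 to 9.77) in the highest. By chromosome, UTX met between 5.01% (chromosome 13) and 7.92% (chromosome 14) of the H3K4me3 peaks on autosomes and 6.76% (6.41 to 7.13) over all of them. On chromosome X the share was 2.35% (1.38 to 3.97), from 13 of 554 peaks.

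Fewer of these sites had H3K4me3 in untreated fibroblasts than in Utx-KO ESC or the iPS clones, while WT fibroblasts with dox and iPS clone 1 overlapped in their intervals. Scored at the UTX peak itself, H3K4me3 was met in Utx-KO ESC by 952 of the 1326 members (71.8%, 69.3 to 74.1), beside 87.4% of all 19468 WT ESC H3K4me3 peaks. In the iPS clones it was met by 723 members (54.5%, 51.8 to 57.2) in clone 1 and 1007 (75.9%) in clone 2, a mean of 65.2% ± 15.1 (SD, n = 2), beside 84.4% and 92.6% of all WT ESC H3K4me3 peaks. With dox it was met by 609 members in Utx-KO MEF (45.9%, 43.3 to 48.6, beside 71.5%) and by 712 in WT MEF (53.7%, 51.0 to 56.4, beside 76.2%). Without dox it was met by 410 in Utx-KO MEF (30.9%, 28.5 to 33.5, beside 61.6%) and by 416 in WT MEF (31.4%, 28.9 to 33.9, beside 60.4%). Of the UTX peaks away from H3K4me3, which the rule fixes to lack it in WT ESC, 0.827% to 6.83% met H3K4me3 in these 7 lists.

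A UTX peak is shorter than an H3K4me3 peak and is met less easily, so the comparison with UTX-free H3K4me3 was made over whole H3K4me3 peaks. A smaller share of UTX-marked than of UTX-free peaks had the mark in each of the 7 other lists. In Utx-KO MEF with dox, 50.4% of UTX-marked and 73.0% of UTX-free peaks met H3K4me3, a difference of -22.5 percentage points (-25.3 to -19.7). In WT MEF with dox the shares were 59.6% and 77.4% (-17.8 points, -20.6 to -15.1). Without dox the shares were 44.0% and 62.8% in Utx-KO MEF (-18.8 points, -21.6 to -16.0) and 43.4% and 61.7% in WT MEF (-18.3 points, -21.0 to -15.5). In iPS clone 1 they were 67.9% and 85.6% (-17.7 points, -20.3 to -15.1) and in clone 2 81.3% and 93.4% (-12.1 points). The difference was smallest in Utx-KO ESC, at 78.7% and 88.0% (-9.34 points, -11.7 to -7.14).

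**Figure D2:**
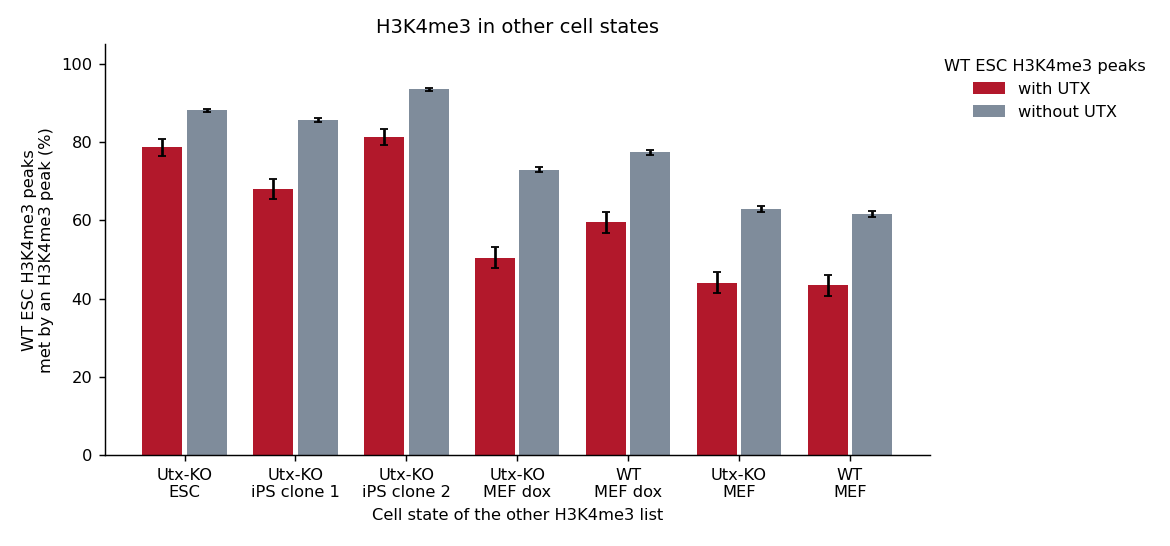
Share of WT ESC H3K4me3 peaks met by an H3K4me3 peak of each other cell state, for UTX-marked peaks (left bar of each pair, n = 1291) and UTX-free peaks (right bar, n = 18177), with 95% Wilson intervals. UTX-marked peaks are lower in all 7 states, from 43.4% against 61.7% in WT MEF to 81.3% against 93.4% in iPS clone 2.

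Among H3K4me3 peaks of like width the differences were larger, not smaller. UTX-marked peaks were wider and wide peaks were found more often in other states, and the means over the 5 width bins were -15.5 points in Utx-KO ESC, -24.5 in WT MEF with dox and -26.3 without. In the third bin (1843 to 2377 bp), 35.5% (29.4 to 42.0) of UTX-marked and 70.3% (68.8 to 71.8) of UTX-free peaks had H3K4me3 in WT MEF. In the widest bin the shares were 70.0% (65.7 to 73.9) and 91.4% (90.4 to 92.3). Within bins of H3K4me3 score, a comparison added after the data were seen, the mean differences were -8.10 points in Utx-KO ESC, -18.1 in WT MEF with dox and -19.0 without. In Utx-KO ESC the difference was found among weaker peaks. In the lowest score bin 29.1% (24.2 to 34.6) of UTX-marked and 51.2% (49.6 to 52.8) of UTX-free peaks had H3K4me3 there, while in the highest bin all 344 UTX-marked peaks had it.

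H3K4me3 was found at more of these sites with dox than without it, as at UTX-free peaks. In Utx-KO cells, 203 members (15.3%, 13.5 to 17.3) had it with dox only and 4 without dox only. In WT cells, 296 members (22.3%, 20.2 to 24.6) had it with dox only and 0 without dox only. The H3K4me3 peaks of dox-treated fibroblasts were also wider. Their median width was 3063 bp in Utx-KO MEF, against 832 bp in untreated cells, and 2379 bp in WT MEF, against 1118 bp. Wider peaks meet a short UTX peak more easily, and how much of these counts comes from width was not tested. Over whole peaks, the mark was found with dox only at 6.89% (5.64 to 8.41) of UTX-marked and 10.4% (9.97 to 10.9) of UTX-free peaks in Utx-KO cells. In WT cells the shares were 16.2% (14.3 to 18.3) and 16.0% (15.4 to 16.5), which did not differ beyond counting error. These are shares of all peaks, and only peaks unmarked without dox could have the mark with dox only. Untreated WT MEF already had it at 43.4% of UTX-marked and 61.7% of UTX-free peaks, and untreated Utx-KO MEF at 44.0% and 62.8%. Fewer UTX-free peaks were thus open to a gain, and shares among the unmarked peaks alone were not compared. With dox, 32 members had H3K4me3 in Utx-KO but not in WT fibroblasts (2.41%, 1.71 to 3.39), and 135 had it in WT but not in Utx-KO fibroblasts (10.2%, 8.67 to 11.9). Over whole H3K4me3 peaks, 1.16% (0.705 to 1.91) of UTX-marked and 1.09% (0.948 to 1.25) of UTX-free peaks had the mark with dox in Utx-KO but not in WT fibroblasts. The opposite case was met by 10.3% (8.76 to 12.1) and 5.48% (5.16 to 5.82). Without dox, 41 members had H3K4me3 in Utx-KO MEF only and 47 in WT MEF only. The H3K4me3 list of Utx-KO MEF with dox was the shortest of the series, and with equally long lists the share of members was 45.9% in Utx-KO and 48.8% in WT fibroblasts with dox.

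Across the 7 other lists, the sites ran from general to specific. All 7 lists had H3K4me3 at 354 members (26.7%, 24.4 to 29.1) and none had it at 173 (13.0%, 11.3 to 15.0). Over whole peaks, all 7 lists had it at 40.3% (37.6 to 43.0) of UTX-marked and 57.1% (56.4 to 57.9) of UTX-free peaks, and none at 10.1% (8.62 to 11.9) and 3.88% (3.61 to 4.17). No fibroblast list had it at 580 members (43.7%, 41.1 to 46.4). Of these, 226 had it in Utx-KO ESC and in at least 1 iPS clone. Over whole peaks, 39.0% (36.4 to 41.7) of UTX-marked and 21.4% (20.8 to 22.0) of UTX-free H3K4me3 peaks had none in the 4 fibroblast lists. Both iPS clones lacked the mark at 304 members (22.9%, 20.7 to 25.3), and over whole peaks at 16.9% (14.9 to 19.0) of UTX-marked and 6.23% (5.89 to 6.59) of UTX-free peaks. The clones differed, with 15 members marked in clone 1 only and 299 in clone 2 only, the second case being met by 15.2% of UTX-marked and 8.18% of UTX-free peaks. The clone 2 list was longer, and in lists cut to equal length the mean of both clones was 47.8%, against 48.8% in WT MEF with dox.

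Members with stronger UTX peaks more often lacked H3K4me3 in fibroblasts and in the iPS clones, and to a lesser degree in Utx-KO ESC. They also lay on weaker H3K4me3 peaks. In 4 groups of equal size by UTX score, H3K4me3 in WT MEF was met by 44.9% (39.6 to 50.3), 37.2% (32.1 to 42.5), 26.9% (22.4 to 31.9) and 16.6% (13.0 to 20.9) of members from the lowest to the highest scores. For WT MEF with dox the share was 67.5% (62.3 to 72.3) at the lowest and 38.0% (32.9 to 43.3) at the highest scores. In iPS clone 1 it was 65.7% (60.4 to 70.6) and 40.7% (35.5 to 46.0). In clone 2 it was 84.3% (80.0 to 87.9) and 64.5% (59.2 to 69.4). For Utx-KO ESC the shares of the 4 groups were 77.1% (72.3 to 81.3), 75.8%, 67.4% and 66.9% (61.6 to 71.7), a narrower range. In the group with the highest scores, 109 and more, 59.0% (53.7 to 64.2) of members had no H3K4me3 in any fibroblast list, against 30.7% (26.0 to 35.9) in the lowest. Among the 419 members with a score of at least 100, the share with H3K4me3 was 16.0% in Utx-KO MEF, 16.7% in WT MEF and 30.5% in Utx-KO MEF with dox. The median score of the underlying H3K4me3 peak was 693 in the group with the lowest UTX scores and 273 in that with the highest, and weak H3K4me3 peaks were found less often in other states with or without UTX. Within bins of H3K4me3 score, a split added after the data were seen, the shares in WT MEF at or above and below the median UTX score were 4.86% (2.37 to 9.69) and 6.35% (3.25 to 12.0) in the lowest bin. In the highest bin they were 41.4% (34.3 to 49.0) and 64.0% (57.2 to 70.3). The intervals were apart in the third and highest bins and overlapped in the other 3. In Utx-KO ESC they overlapped in all 5 bins. Strong UTX peaks also lay partly outside H3K4me3 more often. Among the members wholly covered by H3K4me3, the share with H3K4me3 in WT MEF was still 35.7% (30.6 to 41.3) at or above the median UTX score and 53.9% (49.3 to 58.4) below it. In Utx-KO ESC the shares of the same members, 83.3% (78.7 to 87.0) and 85.9% (82.5 to 88.8), overlapped in their intervals. The intervals also overlapped in iPS clone 1, at 68.5% (63.1 to 73.5) and 74.9% (70.7 to 78.6). The same was true of clone 2, at 84.9% (80.5 to 88.5) and 90.5% (87.5 to 92.8). The split within bins of H3K4me3 score was not made for the iPS clones.

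**Figure D3:**
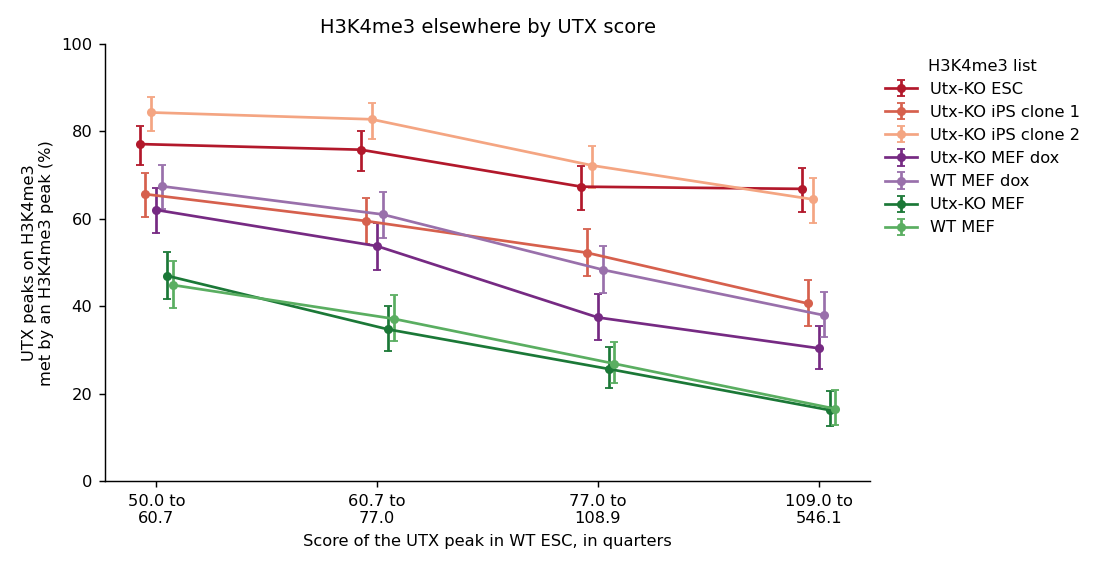
Share of UTX peaks on H3K4me3 met by an H3K4me3 peak of each other cell state, in 4 groups by UTX score in WT ESC (331 or 332 peaks each), with 95% Wilson intervals. The share in WT MEF is 44.9% at the lowest and 16.6% at the highest scores, that in iPS clone 1 65.7% and 40.7%, and that in Utx-KO ESC 77.1% and 66.9%.

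Where H3K4me3 was present without Utx, it was slightly narrower. Of the 1016 UTX-marked peaks with H3K4me3 in Utx-KO ESC, the median width was 2660 bp in Utx-KO ESC and 2989 bp in WT ESC. The 16002 UTX-free peaks measured 2144 bp in Utx-KO ESC and 2234 bp in WT ESC. The median log2 ratio of width, Utx-KO over WT, was -0.17 (interval of the median -0.18 to -0.15) at UTX-marked and -0.07 (-0.08 to -0.07) at UTX-free peaks. The mark was narrower in Utx-KO ESC at 739 UTX-marked peaks (72.7%, 69.9 to 75.4) and at 61.8% (61.1 to 62.6) of UTX-free peaks. Within the widest bin the medians were -0.16 (-0.17 to -0.13) and -0.08 (-0.09 to -0.08), and in the narrowest bin, with 61 UTX-marked peaks, they were 0.01 (-0.18 to 0.19) and 0.05 (0.03 to 0.08). The distributions overlapped widely. The width is that of called peaks in 1 library each, and its spread between libraries is not known. For Utx-KO ESC, here and at the named regions below, it is a sum. The full widths of all Utx-KO ESC peaks that met the WT ESC peak were added, also where they reached beyond it.

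**Figure D4:**
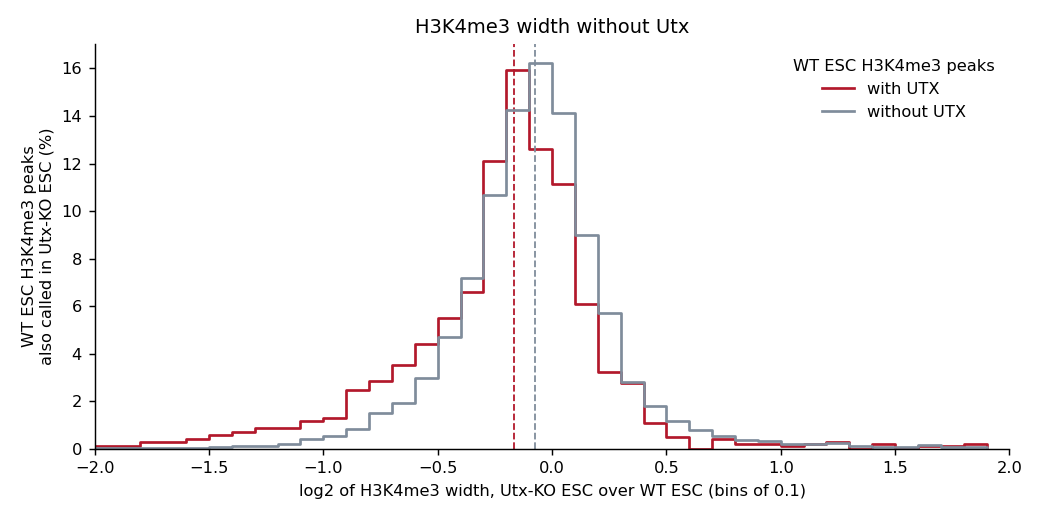
Distribution of the log2 ratio of H3K4me3 width, Utx-KO ESC over WT ESC, in bins of 0.1 between -2 and 2, for UTX-marked (n = 1016) and UTX-free (n = 16002) H3K4me3 peaks of WT ESC, with dashed lines at the medians of -0.17 and -0.07. A larger share of UTX-marked than of UTX-free peaks lies in the tail towards narrower H3K4me3 in Utx-KO ESC. The Utx-KO ESC width is summed over all peaks that met the WT ESC peak.

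The other states covered UTX-marked peaks less fully as well. Where H3K4me3 was present, the median share of the WT ESC peak it covered was 85.5% at UTX-marked and 90.0% at UTX-free peaks in Utx-KO ESC. It was 87.9% and 93.8% in iPS clone 2, 89.0% and 98.5% in WT MEF with dox, and 54.6% and 63.9% in WT MEF. UTX-marked peaks were wider, and a wider peak is less easily covered in full. Coverage was not compared among peaks of like width, so how much of this comes from width was not tested.

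H3K27me3 was rare at these sites, with or without Utx. Over the whole H3K4me3 peak, H3K27me3 met 68 of the 1291 UTX-marked peaks in Utx-KO ESC (5.27%, 4.18 to 6.62), beside 24.2% of all 19468 WT ESC H3K4me3 peaks and 25.6% (25.0 to 26.2) of UTX-free ones. The difference was -20.3 points (-21.6 to -18.8). In WT ESC it met 11 UTX-marked peaks (0.852%, 0.476 to 1.52), beside 7.01% of all and 7.44% (7.07 to 7.83) of UTX-free peaks, a difference of -6.59 points (-7.13 to -5.83). Among the UTX-marked peaks, 59 had H3K27me3 in Utx-KO ESC alone, 2 in WT ESC alone, 9 in both and 1221 in neither. Among the UTX-free peaks the numbers were 3329, 31, 1322 and 13495. The Utx-KO ESC list was much the longer. Taking from it as many top-scoring peaks as WT ESC had, 1.55% of UTX-marked peaks met H3K27me3 in Utx-KO ESC. The difference from UTX-free peaks, added after the data were seen, was then -12.8 points. Among the 419 members with a UTX score of at least 100, the share of their H3K4me3 peaks with H3K27me3 was 1.86% in Utx-KO ESC and 0.464% in WT ESC. Over all members, 2500 bp added on each side of the H3K4me3 peak gave 9.14% in Utx-KO ESC and 1.39% in WT ESC, and the UTX peak itself 2.56% in Utx-KO ESC and 0.452% in WT ESC.

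Read the other way, 11 of the 1364 WT ESC peaks with both marks held UTX (0.806%, 0.451 to 1.44), against 7.07% (6.71 to 7.45) of the 18104 without H3K27me3. Of the 3388 H3K4me3 peaks with H3K27me3 in Utx-KO ESC but not in WT ESC, 59 held UTX (1.74%, 1.35 to 2.24). UTX was thus seldom mapped where H3K27me3 was found in the absence of Utx. The contrast was seen in each width bin. In the second bin, 6.12% (3.54 to 10.4) of UTX-marked and 39.0% (37.5 to 40.6) of UTX-free peaks had H3K27me3 in Utx-KO ESC, and in the widest bin 2.94% (1.76 to 4.88) and 9.04% (8.12 to 10.0). By H3K4me3 score, a comparison likewise added after the data were seen, the Utx-KO ESC list showed it in the 4 lower bins and the WT ESC list in the 3 lowest. In the fourth bin the WT ESC shares were 1.05% and 3.16%, with an interval of the difference of -3.09 to 0.627 points. In the highest, the shares in Utx-KO ESC were 2.62% and 2.54%, a difference of 0.0803 points (-1.28 to 2.41), and those in WT ESC were 0.581% and 0.423%.

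**Figure D5:**
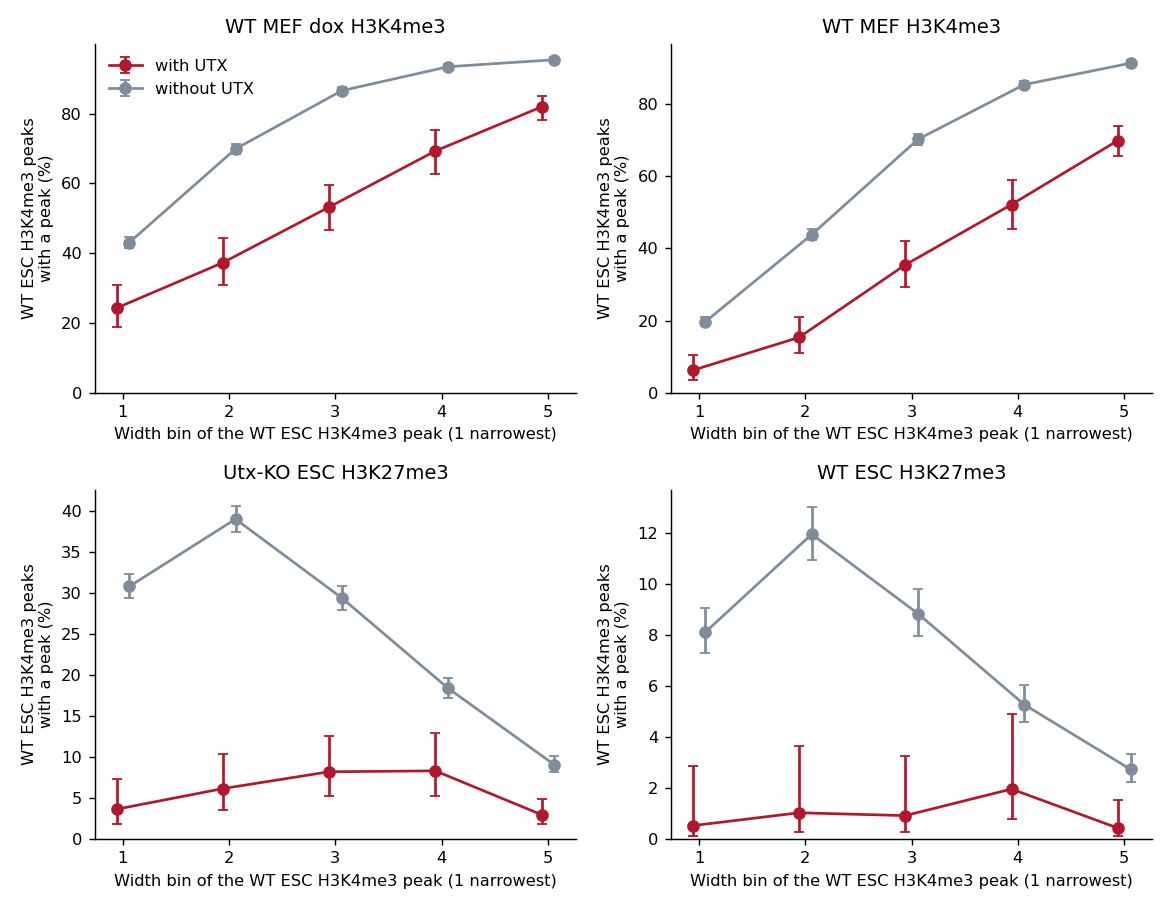
Share of WT ESC H3K4me3 peaks met by H3K4me3 of WT MEF with dox or without it (upper panels) and by H3K27me3 of Utx-KO ESC or WT ESC (lower panels), in 5 width bins from the narrowest to the widest, for UTX-marked and UTX-free peaks with 95% Wilson intervals. UTX-marked peaks are lower in every bin of each panel, with 6.12% against 39.0% for H3K27me3 of Utx-KO ESC in the second bin.

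Wider windows, which still contain the H3K4me3 peak and so carry its difference, were also scored. With 2500 bp on each side, H3K27me3 of Utx-KO ESC met 9.14% (7.69 to 10.8) of UTX-marked and 30.2% (29.5 to 30.8) of UTX-free peaks. With 10000 bp added the shares were 19.1% (17.0 to 21.3) and 40.3% (39.6 to 41.0). Where H3K27me3 of Utx-KO ESC did meet a UTX-marked peak it covered a median of 43.7% of it, against 86.0% of a UTX-free peak.

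In fibroblasts the share of UTX-marked peaks with H3K27me3 was below that of all WT ESC H3K4me3 peaks, but not among the strongest of them. With dox it met 45 of them in Utx-KO MEF (3.49%, 2.62 to 4.63, beside 8.74% of all WT ESC H3K4me3 peaks) and 8 in WT MEF (0.620%, 0.314 to 1.22, beside 0.801%). Without dox it met 31 in Utx-KO MEF (2.40%, 1.70 to 3.39, beside 4.88%) and 43 in WT MEF (3.33%, 2.48 to 4.46, beside 4.95%). In the iPS clones it met 0 and 1 of the UTX-marked peaks, beside 0.0514% and 0.108% of all, and these lists are too short to show a share of this size. For WT MEF with dox the interval of the difference from UTX-free peaks, -0.531 to 0.416 points, included 0. In the highest bin of H3K4me3 score UTX-marked peaks were above UTX-free ones. The shares there were 5.23% and 1.72% in Utx-KO MEF with dox (3.51 points, 1.56 to 6.42), and 4.36% and 0.958% both in Utx-KO MEF and in WT MEF without dox (3.40 points, 1.66 to 6.12). In WT MEF with dox they were 0.872% and 0.197%, from 3 UTX-marked peaks. In the widest bin the differences in the 4 lists were between 0.308 and 1.45 points, with intervals that included 0.

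Few of these sites had UTX in fibroblasts. A UTX peak of WT MEF with dox met 10 members (0.754%, 0.410 to 1.38) and 23 UTX-marked H3K4me3 peaks (1.78%, 1.19 to 2.66, beside 1.14% of all WT ESC H3K4me3 peaks). A UTX peak of WT MEF met 2 members and 2 UTX-marked peaks (0.155%, beside 0.108%). With dox, UTX-marked peaks exceeded the 1.09% of UTX-free ones by 0.687 points (0.0735 to 1.58). UTX-marked peaks were also wider, and the mean difference within width bins was 0.423 points. Only in the second width bin, with 5 such UTX-marked peaks, did the interval (0.33 to 5.11 points) leave out 0. The UTX list of WT MEF had 372 peaks.

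The 10 members with the highest UTX scores show the range of the set. For them, H3K4me3 in other lists was scored at the UTX peak. The strongest, on chromosome 14 from 55704195 to 55705387 (score 546), bridged 2 H3K4me3 peaks. The wider of these measured 6540 bp, and H3K4me3 was found at the UTX peak in Utx-KO ESC and in no iPS or fibroblast list. The second spanned 41240536 to 41242021 of chromosome 13 (474) and its H3K4me3 peak was 1381 bp wide with a score of 58.1. The third spanned 4904344 to 4905600 of chromosome 12 (420) and its H3K4me3 peak was 712 bp wide with a score of 63.8. Neither had H3K4me3 in any other list. The fourth, on chromosome 18 from 85102973 to 85104608 (392), overlapped the end of a 6081 bp H3K4me3 peak that measured 4323 bp in Utx-KO ESC, and the mark was present in both iPS clones and in no fibroblast list. Of the 10, only that on chromosome 1 from 138849927 to 138850945 (344) had H3K4me3 in fibroblasts, with dox in Utx-KO and in WT cells. Its H3K4me3 peak was 9216 bp wide and met H3K27me3 in Utx-KO MEF with dox and in Utx-KO and WT MEF without dox. None of the 10 had H3K27me3 in Utx-KO ESC or WT ESC at its H3K4me3 peaks.

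Members with H3K4me3 at the UTX peak in WT fibroblasts with dox but not without it included strong and wide regions. Presence in the other lists was again scored at the UTX peak. On chromosome 17 from 23737363 to 23738875 (UTX score 271), the H3K4me3 peak was 5077 bp wide in WT ESC and 4715 bp in Utx-KO ESC, and the mark was absent from untreated fibroblasts and present with dox in Utx-KO and WT cells. On chromosome 5 from 33877868 to 33878830 (252) the H3K4me3 peak was 11074 bp wide in WT ESC and 9867 bp in Utx-KO ESC. At this UTX peak H3K4me3 was found with dox in WT fibroblasts and not in Utx-KO fibroblasts, and H3K27me3 met the H3K4me3 peak in Utx-KO and WT MEF without dox. The member on chromosome 6 from 148940281 to 148941530 (290) also had H3K4me3 with dox in WT fibroblasts only. At the UTX peak it had the mark in both iPS clones but not in Utx-KO ESC. This member bridged 2 H3K4me3 peaks. In Utx-KO ESC, H3K4me3 measuring 835 bp met the 1331 bp peak of this pair without reaching the UTX peak.

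The H3K4me3 peaks with most UTX peaks, 3 each, included 2 that were marked with dox in WT and not in Utx-KO fibroblasts. On chromosome 17 from 35641044 to 35647731 (6688 bp, UTX scores 72.4 to 179), H3K4me3 covered 89.2% of the peak in Utx-KO ESC, 67.8% and 93.7% in iPS clones 1 and 2, 47.0% in WT MEF with dox and 0% in Utx-KO MEF with dox and in untreated fibroblasts. On chromosome 9 from 110843210 to 110850949 (7740 bp, UTX scores 71.0 to 235), it covered 67.7% in Utx-KO ESC, 65.3% and 81.4% in the clones, 11.8% in WT MEF with dox and 0% in the other fibroblast lists. On chromosome 16 from 22403122 to 22413554 (10433 bp) it covered 83.6% in Utx-KO ESC, 18.7% and 68.6% in the clones and 0% in the fibroblast lists. On chromosome 5 from 123584086 to 123594968 (10883 bp) it covered 82.9% in Utx-KO ESC, 100% in dox-treated WT MEF and 66.2% in untreated WT MEF, a region marked in every state. None of these 4 peaks met H3K27me3 in any list. The widest UTX-marked peak, on chromosome 5 from 108489245 to 108510712, was 21468 bp wide and was also the widest of all WT ESC H3K4me3 peaks. It was covered to 87.0% in Utx-KO ESC, 39.2% and 71.5% in the clones and 8.86% to 12.5% in the fibroblast lists.

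H3K27me3 in Utx-KO ESC or WT ESC was found at the H3K4me3 peaks of 71 members, with UTX scores of 50.8 to 144 and a median of 66.3, and the other 1255 members had a median of 78.6. The highest with H3K27me3 in Utx-KO ESC and not in WT ESC was on chromosome 9 from 14663207 to 14663745 (144), at a 2314 bp H3K4me3 peak that also met H3K27me3 in Utx-KO MEF with dox and in Utx-KO and WT MEF without dox. The highest with H3K27me3 in WT ESC was on chromosome 18 from 64504293 to 64504787 (103), and its H3K4me3 peak met H3K27me3 in Utx-KO ESC as well. Of the members met by UTX of WT MEF with dox, the highest were on chromosome 3 from 104618147 to 104619132 (128) and on chromosome 8 from 59968476 to 59969227 (124), which lay on an H3K4me3 peak of 8195 bp.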

How the data were processed

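ChIP-seq peak lists of 19 immunoprecipitated samples were used, and the 8 whole-cell extracts were not analysed here. The authors deposited 1 list per sample with chromosome, start, end, name and a score for every peak. Per the submitters' processing notes the build was mm9 and the tools were MACS 1.4.1, Bowtie 0.12.5 and CASAVA 1.8.2. Their settings, and the control behind each list, are not given in the sources used here. Scores saturate (1071 WT ESC H3K4me3 peaks reach 3100 or more) and depend on depth, so the authors' scores were used only to rank or filter peaks within a list.

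After 1 mitochondrial peak was left out of the deposited peaks, overlaps of at least 1 bp were counted. Width and score bins were quintiles of all WT ESC H3K4me3 peaks. Shares have Wilson 95% intervals, differences the interval combined from both, and medians a binomial order-statistic interval. Named regions are the 10 members with the highest UTX score, the 5 highest in each of several presence classes and the 5 H3K4me3 peaks with most UTX peaks, of which the text gives a selection. The widest peak was named after its values were seen. Members and rules were chosen with earlier results of these data known. Alternatives were a UTX score of at least 100, an overlap of 50%, the UTX centre, autosomes, equal list lengths, other scored windows and each iPS clone alone. The overlap code recovered 600 of 600 planted regions and matched bedtools 2.31.1 for 38 of 38 pairs of lists. Software was matplotlib 3.10.9, scipy 1.17.1, pandas 2.3.3 and numpy 2.4.6 under Python 3.11.15.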

Additional observations from a re-analysis of the deposited data

Results flagged for a closer look

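By sign alone, effects of the same contrast went in opposite directions in different cells, over the 1291 UTX-marked H3K4me3 peaks of WT ESC. With 1 library per state these differences between effects were not tested. The share with H3K27me3, Utx-KO minus WT, was 4.42 percentage points in ESC, -0.93 in MEF without dox and 2.87 in MEF with dox. At UTX-free peaks the same differences were 18.1, -0.011 and 8.30 points. The share with H3K27me3, dox minus no dox, was 1.08 points in Utx-KO MEF and -2.71 in WT MEF, whose list with dox had only 938 peaks, and 4.06 and -4.25 points at UTX-free peaks. The share with H3K4me3, Utx-KO minus WT, was 0.62 points in MEF without dox and -9.14 in MEF with dox, beside 1.19 and -4.40 points at UTX-free peaks. Other lists compared here were also of unequal length. H3K27me3 had 36231 peaks in Utx-KO ESC and 5679 in WT ESC, and H3K4me3 16157 in Utx-KO and 19689 in WT MEF with dox. With lists of equal length, H3K27me3 met 1.55% of UTX-marked peaks in Utx-KO ESC, against 0.852% in WT ESC. The signs were the same at UTX-free peaks, but the values in MEF without dox were small. There, 403 UTX-free peaks had H3K27me3 in Utx-KO MEF only and 405 in WT MEF only. At UTX-marked peaks the numbers were 8 and 20 for H3K27me3 and 37 and 29 for H3K4me3, with overlapping intervals for both marks. Opposite directions that rest on these small values are uncertain.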

How the results depend on the processing

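Of 158 values recomputed for 21 results, 80 stayed within the interval, spread or 1.5-fold range of the reported value, 78 moved and 0 changed sign. Counts, widths and shares cannot change sign, so only the differences could have done so. All 73 recomputed differences between UTX-marked and UTX-free H3K4me3 peaks were below 0. They cover the other H3K4me3 lists and H3K27me3 of Utx-KO and WT ESC, with bins entering only as means. The differences above 0 given earlier were not among them. Those concern UTX of WT MEF with dox, H3K27me3 of fibroblasts, and H3K27me3 of ESC in the highest score bin. No replicate check was possible outside the iPS clones, and depth was unknown. Autosomes alone (1315 members), and leaving out positions with peaks of every kind in WT MEF (0 members), moved no value. These 2 settings changed the set little or not at all, so their values, counted among the 80, could hardly move. For the mean of the iPS clones the allowed spread was the SD of the 2 clones, 15.1 points. Leaving out either clone always stays within that SD, so those values, also among the 80, could not move. By the same wide limit, a mean of 54.1% at a UTX score of at least 100, against 65.2%, counted as unmoved.

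At a UTX score of at least 100, 419 members remained (31.0% of such UTX peaks, median H3K4me3 width 2335 bp). Their shares with H3K4me3 were 67.8% in Utx-KO ESC, 30.5% for Utx-KO and 38.7% for WT MEF with dox, and 16.0% for Utx-KO and 16.7% for WT MEF without, and H3K27me3 met 1.86% of UTX-marked peaks in Utx-KO ESC and 0.464% in WT ESC. The differences in H3K4me3 between UTX-marked and UTX-free peaks were -11.9 points in Utx-KO ESC, -28.3 and -20.5 in iPS clones 1 and 2, -37.7 for Utx-KO MEF with dox, -30.5 for WT MEF with dox, -34.1 for untreated Utx-KO MEF and -32.9 in WT MEF, and -23.7 for H3K27me3 in Utx-KO ESC.

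Requiring 50% of the UTX peak to overlap, or its centre, kept 22.0% or 21.7% of UTX peaks, with median H3K4me3 widths of 2709 and 2748 bp. Shares with H3K4me3 were 77.9% and 78.1% in Utx-KO ESC, 50.6% and 50.7% for Utx-KO MEF with dox, 58.7% and 59.1% for WT MEF with dox, 35.9% and 36.1% for untreated Utx-KO MEF, and 36.5% and 36.7% in WT MEF. The differences were -6.66 and -5.83 points in Utx-KO ESC, -13.0 and -12.2 in iPS clone 1, -8.65 and -8.24 in clone 2, -18.3 and -18.0 for Utx-KO MEF with dox, -13.5 and -12.9 for WT MEF with dox, -14.7 and -14.1 for untreated Utx-KO MEF, and -14.1 and -13.3 in WT MEF.

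With H3K4me3 lists of equal length the shares were 62.4% in Utx-KO ESC, 48.8% for WT MEF with dox, 26.4% for untreated Utx-KO MEF and 47.8% as the mean of the iPS clones. Scored over the whole H3K4me3 peak, they were 79.6% in Utx-KO ESC, 51.0% for Utx-KO MEF with dox, 60.6% for WT MEF with dox, 44.8% for untreated Utx-KO MEF and 44.3% in WT MEF. With 50% of the UTX peak covered, they were 56.2%, 42.5%, 49.2%, 22.2% and 23.8% in the same order. H3K27me3 of Utx-KO ESC met 1.55% of UTX-marked peaks with lists of equal length, 2.56% at the UTX peak and 9.14% with 2500 bp added on each side, and in WT ESC it met 0.452% at the UTX peak. The single iPS clones gave 54.5% and 75.9%. No paired analysis was possible because replicate numbers mark iPS clones only and no groups with shared numbers were compared by a test.

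Within width bins the mean differences were -15.5 points in Utx-KO ESC, -24.9 and -17.0 in iPS clones 1 and 2, -30.3 for Utx-KO MEF with dox, -24.5 for WT MEF with dox, -26.8 for untreated Utx-KO MEF and -26.3 in WT MEF. At the centre of the H3K4me3 peak they were -11.9 in Utx-KO ESC, -25.0 and -15.6 in the clones, -21.8 for WT MEF with dox, and -15.1 and -2.49 for H3K27me3 in Utx-KO ESC and WT ESC. The mean within score bins and, for H3K27me3 in Utx-KO ESC, equal list lengths (-12.8) were added after the data were seen. Taking fewer peaks, or asking for more of the UTX peak to be covered, lowers a share by construction. For the other shifts the cause was not tested.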
